A study of Sus scrofa with 36 samples.

Results

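The cytosolic ribosome is assembled from ribosomal RNA and a fixed set of ribosomal proteins, named RPS for the small subunit and RPL for the large one. In the pig count table these genes were chosen by name alone: every row whose symbol was RPSA, or RPL or RPS followed by a digit or by P and a digit, with the RPS6K kinases left out. The rule found 51 genes among the 25880 rows of the table, of which 14857 carry a symbol. They comprise 24 small subunit genes of 31 on the standard list, 18 large subunit genes of 43, all 3 genes of the ribosomal stalk and 6 paralogs of 12 (RPL3L, RPL7L1, RPL10L, RPL26L1, RPL36AL and RPS27L). The other standard names had no matched row and were not analysed here. Of the 51 genes, 50 passed the filter on low counts. The exception was RPL10L, with 12 counts in all 36 libraries together and at most 3 in one of them.

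The small subunit reads the mRNA, the large subunit joins the amino acids, and the stalk (RPLP0, RPLP1 and RPLP2) recruits the translation factors that drive elongation. The mRNAs of ribosomal proteins begin with a terminal oligopyrimidine tract, through which mTORC1 and the RNA-binding protein LARP1 set their translation and stability, so an mRNA level is not a rate of protein synthesis. Some ribosomal proteins have paralogs, and RPL3L is the striated muscle counterpart of RPL3, which it partly replaces in heart and skeletal muscle.

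The tissue came from Yorkshire-landrace pigs operated on at day 2 (Young) or day 14 (Old) after birth. Infarcted pigs had branches of the left anterior descending and circumflex arteries tied permanently, and sham pigs had the operation without ligation. The heart was harvested after 1 day, called Early, or after 1 week, called Late, at ages of 3 days (Young Early), 9 days (Young Late), 15 days (Old Early) and 21 days (Old Late). All pigs were given ketoprofen and enrofloxacin. Infarct zone (IZ) and border zone (BZ) were cut from the same 12 infarcted pigs and anterior left ventricular wall from 12 sham pigs, giving 36 libraries in 12 groups of 3. Libraries of a group are separate pigs, but IZ and BZ of a pig are not independent, and both zones are set against the same sham libraries, as are the age comparisons. The study's title asks about early regenerative capacity. The comparisons made here ask how the mRNA level of the translation machinery differs with age, time and injury.

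Library totals ran from 8113200 to 39789874 counts, mitochondrial genes held 9.75 to 44.1% of them, and the RNA integrity number (RIN) ran from 6.3 to 8.4. Cardiomyocyte markers were abundant throughout, with summed levels of 25664 to 186437 CPM (counts relative to the library size, scaled by the trimmed mean of M values, TMM). Replicate 2 of the Young Early BZ group stood apart. It had the most counts, the lowest TMM factor (0.58), a ribosomal protein share of 6.78% of its counts, 10.1% mitochondrial counts, and the highest summed cardiomyocyte (186437 CPM), leukocyte (3787 CPM) and red cell (2760 CPM) marker levels of the 36. Every comparison shares an estimate of spread with that library, so the number of ribosomal protein genes called in a comparison is given for all 36 libraries and, where it differs, for the 35 without it, a setting chosen after seeing the data. Counts of other lists, of markers, at an unadjusted p and without overlap are for 36 libraries unless stated. Preparation batch follows the groups. All Young Early libraries are in batch 1, all Old Early in batch 2 and all Old Late in batch 3, and Young Late libraries are split between batches 1 and 2.

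Ribosomal protein genes were highly expressed and spread over 15 chromosomes. Over all libraries the highest mean level on the log2 CPM scale was that of RPS2 (10.81), a small subunit protein near the mRNA entry channel, ahead of the stalk base RPLP0 (10.42) and RPL10 (10.27), which joins late in large subunit maturation. Divided by the length of each gene model, RPS28 (1143 CPM per kb), RPL11 (1098), RPL29 (925) and RPS18 (916) were highest, genes singled out after their values were seen. The lowest 5 tested genes per kb were all paralogs: RPS27L (10.4 CPM per kb), RPL7L1 (15.1), RPL26L1 (28.6), RPL3L (60.2) and RPL36AL (61.6). RPL3L lies on chromosome 3 from 40005075 to 40016701, only 1964 bases beyond RPS2 (39996140 to 40003110) on the same strand, as the file's coordinates give it. The genome build is not given in the sources used here. RPS29 and RPL36AL lie 19830 bases apart on chromosome 1.

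The ribosomal protein level of a library, the mean log2 CPM of the 50 genes, had its lowest group means in the shams of Old pigs and was higher in those of Young pigs. It was 9.30, 9.09 and 9.05 in Young Early shams, 8.49, 8.48 and 8.26 in Old Early shams, 8.88, 8.75 and 8.72 in Young Late shams, and 8.28 in each of the 3 Old Late shams. At both times all Young shams lay above all Old shams. In the infarct zone the level was 8.86, 9.36 and 8.77 (Young Early), 9.15, 8.74 and 8.71 (Old Early), 9.04, 9.07 and 8.90 (Young Late), and 8.73, 8.25 and 8.33 (Old Late). In the border zone it was 8.92, 10.75 and 8.77 (Young Early), 9.27, 8.93 and 8.51 (Old Early), 9.0, 8.90 and 8.79 (Young Late), and 8.72, 8.75 and 8.54 (Old Late). Ranked by mean, the groups ran from Young Early BZ (9.48 ± 1.10, SD, n = 3) through Young Early Sham (9.15 ± 0.13), Young Late IZ (9.0 ± 0.09), Young Early IZ (8.99 ± 0.32), Old Early BZ (8.90 ± 0.38), Young Late BZ (8.90 ± 0.10), Old Early IZ (8.87 ± 0.25), Young Late Sham (8.78 ± 0.09), Old Late BZ (8.67 ± 0.11) and Old Late IZ (8.44 ± 0.26) to Old Early Sham (8.41 ± 0.13) and Old Late Sham (8.28). Each group overlapped its neighbour in this order, and the first place of Young Early BZ rests on replicate 2.

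**Figure D1:**
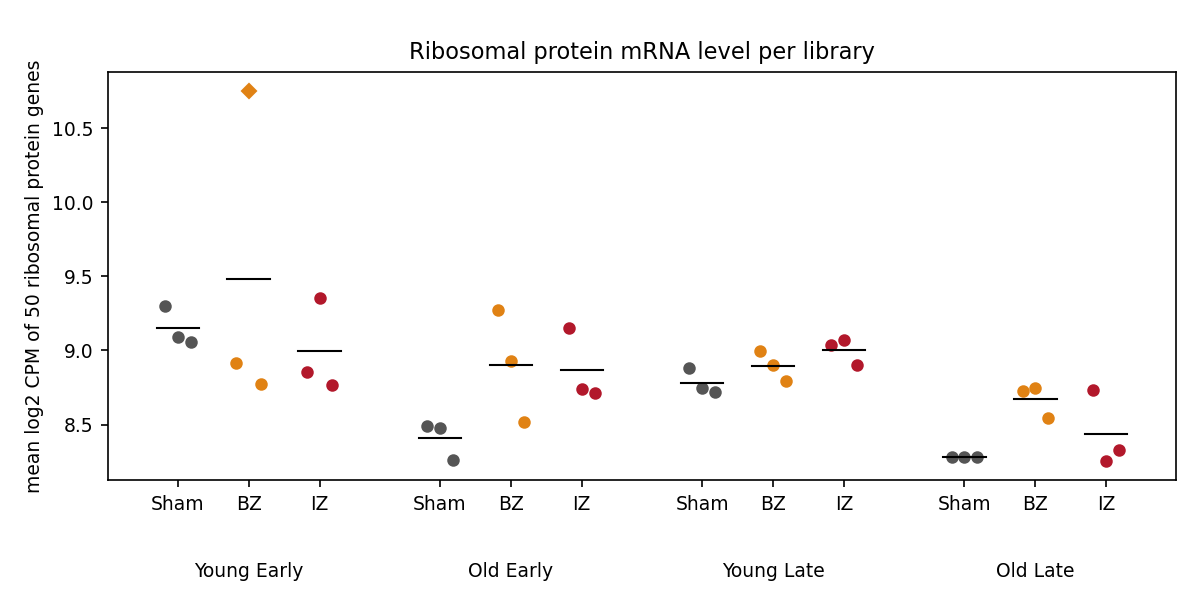
Mean log2 CPM of the 50 tested ribosomal protein genes in each of the 36 libraries, by group. Each point is a library, the horizontal bars are group means and the diamond is Young Early BZ replicate 2 at 10.75. The Old shams lie below the Young shams of the same time.

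Ribosomal protein mRNAs were lower in the hearts of Old than of Young sham pigs, most clearly 1 day after surgery. In Early shams 19 of the 50 genes were called lower and none higher in Old pigs (adjusted p under 0.05, edgeR), against 13.2% of all genes tested called lower and 17% higher. Their median log2 difference was −0.73, against 0.03 over all genes tested, and 49 of 50 differences were negative. For 48 of the 50 genes all Old libraries lay below all Young ones, against 26.9% of all genes. Among the called genes were 10 of 24 small subunit genes, 7 of 18 large subunit genes, 1 of 3 stalk genes and 1 of 5 tested paralogs. Without Young Early BZ replicate 2, a library outside this comparison, 41 were called lower (19.4% of all genes). Those 41 held all 19 named with 36 libraries, and by class they were 21 small subunit genes, 15 large subunit genes, 3 stalk genes and 2 paralogs.

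The widest difference was that of RPLP2, a stalk protein. It measured 1282, 1125 and 1028 CPM in Young Early shams and 396, 430 and 311 CPM in Old Early shams, with no overlap, a log2 difference of −1.60 ± 0.49 (SE, adjusted p = 0.0167). RPS2 measured 3295, 2963 and 2584 CPM in Young and 1296, 1299 and 1084 CPM in Old shams. The groups again lay apart, by −1.27 ± 0.34 (adjusted p = 0.00870). RPL28, a large subunit protein, fell from 764, 548 and 580 CPM to 270.0, 234 and 223 CPM (−1.38 ± 0.47, adjusted p = 0.0274). RPS18, a protein of the small subunit head that was also singled out after its values were seen, measured 702, 589 and 586 CPM in Young shams and 304, 331 and 243 CPM in Old ones (−1.10 ± 0.27, adjusted p = 0.00618). All 3 Old values lay below all 3 Young values for both genes. RPL7, a large subunit protein, was the only member with a positive difference: 522, 504 and 450 CPM in Young against 535, 538 and 493 CPM in Old shams, which overlap (0.09, not called). The other stalk genes had negative differences that were not called with 36 libraries. RPLP0 measured 1959, 1596 and 1556 CPM in Young and 1133, 1081 and 944 CPM in Old shams (−0.69 ± 0.33, adjusted p = 0.106), and RPLP1 differed by −0.91 ± 0.36 (adjusted p = 0.0560). Over the 35 libraries both were called, at adjusted p = 0.00916 and 0.00125. For both genes the groups did not overlap.

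The count in Early shams depended on single libraries and on covariates confounded with age. Left out in turn, Young replicates 1, 2 and 3 left 3, 7 and 7 genes called, and Old replicates 1, 2 and 3 left 6, 5 and 3. RIN was 6.4 to 6.9 in Young and 7.1 to 7.6 in Old Early shams, and with RIN as a covariate 2 genes were called (27 without the library that stands apart). With preparation batch as a term, estimable only through the Young Late libraries, 1 gene was called, RPS2 (−1.40, adjusted p = 0.0492), and 32 without that library. Shares of all genes called in these settings are not given, so a loss particular to members cannot be told from a general one. Within batch 2 the Young Late shams replicates 1 and 3 (8.88 and 8.72) lay above the 3 Old Early shams (8.26 to 8.49), at a different time after surgery. Summed cardiomyocyte markers were 117666 to 138776 CPM in Young and 86442 to 97777 CPM in Old Early shams, with 2 of 11 tested markers called higher and 1 lower. Leukocyte markers summed to 845 to 1147 CPM and 668 to 816 CPM (2 of 14 higher, none lower), and smooth muscle markers to 881 to 990 CPM and 697 to 857 CPM (1 of 8 higher, 3 lower). Endothelial markers summed to 773 to 844 CPM and 548 to 572 CPM (1 of 9 higher, 2 lower), and atrial markers to 955 to 1180 CPM and 502 to 707 CPM (none of 4 higher, 1 lower). The cardiomyocyte, leukocyte, smooth muscle, endothelial and atrial sums were all lower in Old than in Young shams without overlap. Fibroblast markers summed to 1588 to 1751 CPM and 1421 to 2149 CPM, which overlap (none of 11 called). Markers of dividing cells summed to 82.0 to 118 CPM and 154 to 204 CPM (3 of 12 higher, none lower). The part of these in the difference was not tested. In bulk tissue, fewer cells of a type and less RNA per cell cannot be told apart.

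One week after surgery the direction in the shams was the same, with fewer calls. In Late shams 1 of 50 genes, RPL3, was called lower in Old pigs, against 3.75% of all genes lower and 6.69% higher, and 12 were lower at an unadjusted p under 0.05 (11.6% of all genes). DESeq2 called 2 (14.6% of all genes in either direction). The median difference was −0.52 (0.04 over all genes), and for 42 of 50 genes the Old libraries lay below the Young ones, against 16.5% of all genes. Without Young Early BZ replicate 2, 23 genes were called lower (8.4% of all genes). They included RPS2, which measured 2230, 2130 and 2232 CPM in Young Late and 1275, 1159 and 1285 CPM in Old Late shams with no overlap (−0.82 ± 0.21, adjusted p = 0.00893 over 35 libraries). RIN was 6.6 to 7.6 in Young and 7.8 to 8.4 in Old Late shams, and batch and age cannot be told apart there. The call of RPL3 was lost with RIN as a covariate, and without Young replicate 1 or 2 or any one of the Old replicates.

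Within the Young shams, no gene was called between 1 day and 1 week, where 9.18% of all genes were called in either direction by edgeR, and 3 members were lower at an unadjusted p under 0.05 (14.3% of all genes). The median difference was −0.37, and for 32 genes the Late libraries lay below the Early ones, against 18.5% of all genes. RPLP2 measured 622, 565 and 503 CPM in Young Late shams, all below the Young Early ones. Without the library that stands apart, 9 genes were called lower (10.5% of all genes). DESeq2 also called none over 36 libraries (14.7% of all genes in either direction).

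**Figure D2:**
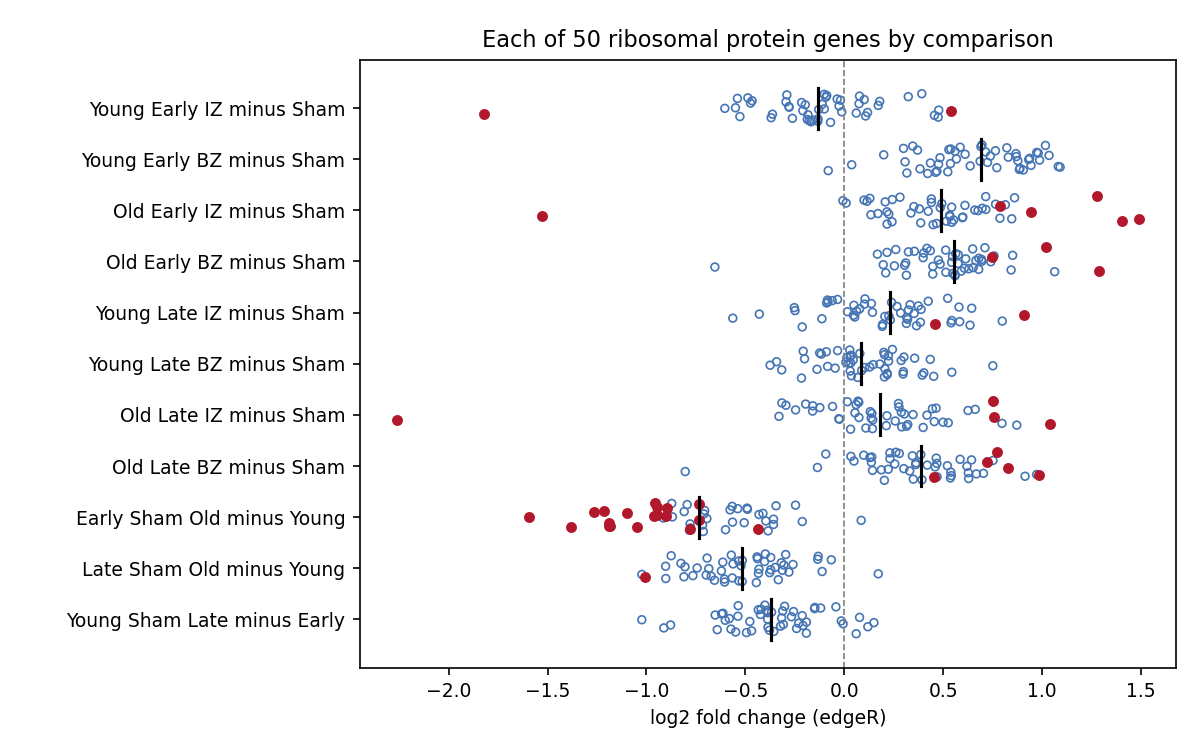
Log2 fold change (edgeR, 36 libraries) of each of the 50 tested genes in each comparison, one point per gene. Filled red points passed the adjusted p threshold, open circles did not, and black ticks are medians. The points for Early shams lie mostly below 0, with a median of −0.73, and those for the Old Early zones mostly above 0.

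In Old pigs 1 day after infarction RPL3, RPL28, RPSA, RPL7L1 and RPS18 rose in the infarct zone and RPL3, RPSA and RPS18 in the border zone. In Old Early IZ 5 of 50 genes were called higher than sham and 1 lower, against 18.9% and 14% of all genes, so the share of members called was below that of all genes. The median difference was 0.49 (0.00 over all genes), and for 39 genes all IZ libraries lay above all shams, against 26.9% of all genes. In Old Early BZ 3 genes were called higher and none lower (13.5% and 7.73% of all genes), the median was 0.55, and 26 genes lay above the shams without overlap (23.2% of all genes). Over the 35 libraries the counts were 26 higher and 1 lower in IZ (22.4% of all genes higher) and 29 higher in BZ (17.3%). The 26 in IZ held 15 of 24 small subunit genes, 8 of 18 large subunit genes, 1 of 3 stalk genes and 2 of 5 paralogs, and the 29 in BZ held 15, 10, 2 and 2. With 36 libraries the BZ count was 1 without Old Early sham replicate 3 or BZ replicate 1, and the IZ count was 3 without IZ replicate 1.

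RPSA, a small subunit protein also described as a laminin receptor precursor, lies on chromosome 13 from 24072510 to 24083686. It measured 374, 367 and 305 CPM in Old Early shams, 1121, 724 and 693 CPM in IZ and 869, 641 and 611 CPM in BZ. Both zones lay wholly above the shams, by 1.28 ± 0.29 (adjusted p = 0.00139) and 1.02 ± 0.29 (adjusted p = 0.0134). RPL28 rose in IZ to 994, 423 and 507 CPM, above its shams without overlap (1.40 ± 0.47, adjusted p = 0.0210), with replicate 1 high. RPS18 measured 590, 497 and 429 CPM in IZ and 593, 483 and 399 CPM in BZ, all above its shams (0.79 ± 0.27, adjusted p = 0.0261, and 0.75 ± 0.27, adjusted p = 0.0483). RPL7L1, a paralog of RPL7 on chromosome 7 (37940549 to 37950049), measured 41.0, 47.3 and 40.6 CPM in shams and 92.7, 72.4 and 83.1 CPM in IZ. It rose by 0.95 ± 0.27 (adjusted p = 0.00778), again with no overlap.

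In Young pigs at 1 day few members were called, in both directions. In Young Early IZ, 1 of 50 was called higher and 1 lower, against 14.8% and 11.6% of all genes, with a median of −0.13 (0.08 over all genes). Over the 35 libraries 3 were called higher and 1 lower, against 2886 and 2323 of all 14741 genes tested. RPL7 rose, from 522, 504 and 450 CPM in shams to 710, 729 and 705 CPM (0.54 ± 0.19, adjusted p = 0.0401), and the groups did not overlap. Its call was lost when any 1 of the 6 libraries compared was left out. RPL3L fell and is described below. RPS2, by comparison, measured 1929, 2635 and 1804 CPM in IZ, which overlaps its shams (−0.47, not called). In Young Early BZ none was called (24 of 50 were higher at an unadjusted p under 0.05, against 11.8% of all genes), where 0.894% of all genes were called by edgeR in either direction. DESeq2 called 1 member (4.15% of all genes in either direction). The median was 0.69 with replicate 2 and −0.30 without it. RPLP2, for example, measured 698, 5264 and 590.0 CPM in BZ, where replicate 2 lay above all shams and the other two below them. Leaving out BZ replicate 1 or 3, which gives replicate 2 more weight, brought 20 and 14 calls.

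One week after infarction few genes were called over 36 libraries, and these were mostly RPL3, RPSA and paralogs. Over the 35 libraries 4 of 24 small subunit genes, 4 of 18 large subunit genes and 2 of 5 paralogs were called higher in Young Late IZ. In the same classes 4, 4 and 2 were called higher in Old Late IZ, and 8, 8 and 3 in Old Late BZ. The share called higher was largest among the paralogs in each of these zones, though that class is small. In Young Late IZ 2 genes were called higher and none lower (17.3% and 13.1% of all genes; member median 0.23), and the count was 10 higher without Young Early BZ replicate 2 (20.9% of all genes). Both were paralogs. RPL7L1 rose from 46.4, 30.9 and 40.9 CPM to 78.2, 77.7 and 66.4 CPM (0.91 ± 0.27, adjusted p = 0.0116), and RPL26L1, a paralog of RPL26, from 21.3, 19.2 and 19.4 CPM to 26.1, 27.6 and 28.9 CPM (0.46 ± 0.17, adjusted p = 0.0397). Neither overlapped its shams. The count was 0 without Young Late sham replicate 2, and 1 without sham replicate 3 or any one IZ library. In Young Late BZ none was called by edgeR, against 14.7% of all genes in either direction, with a median of 0.08. Over the 35 libraries 1 was called higher, against 1787 of all 14741 genes tested. At an unadjusted p under 0.05, 2 were higher (16.7% of all genes), and DESeq2 called 1 (18.5% of all genes in either direction).

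In Old Late IZ 3 genes were called higher and 1 lower, against 24.3% and 23.2% of all genes, with a median of 0.18 (−0.04 over all genes). In Old Late BZ 5 were called higher and none lower (19.5% and 18.7% of all genes), the median was 0.39, and 41 genes lay above the shams without overlap (30.3% of all genes). RPSA measured 400, 374 and 393 CPM in shams, 768, 570 and 625 CPM in IZ (0.75 ± 0.29, adjusted p = 0.0347) and 781, 623 and 591 CPM in BZ (0.77 ± 0.29, adjusted p = 0.0362). RPL7L1 measured 30.5, 37.5 and 27.6 CPM in shams, 67.5, 49.4 and 44.3 CPM in IZ (0.76 ± 0.27, adjusted p = 0.0218) and 58.2, 61.2 and 50.2 CPM in BZ (0.83 ± 0.27, adjusted p = 0.0165). In both genes all IZ and BZ libraries lay above all shams. RPS18 and RPL26L1 rose in BZ, by 0.72 ± 0.27 and 0.45 ± 0.17 (adjusted p = 0.0361 and 0.0348). Not all members moved that way. RPS2 measured 1252, 919 and 966 CPM in Old Late IZ, overlapping its shams, and RPLP0 differed by −0.33 (not called). Over the 35 libraries there were 10 higher and 2 lower in IZ (26.9% of all genes higher), the second lower one being RPS4X, an X-linked small subunit gene (−0.32), and 19 higher in BZ (22.8%). The 10 higher in IZ held 4 small subunit genes, 4 large subunit genes and 2 paralogs, and the 19 in BZ held 8, 8 and 3. With 36 libraries the IZ count was 2 without Old Late sham replicate 1 or 3 or IZ replicate 1. The BZ count was 0 without BZ replicate 1, 1 without sham replicate 1 or 3 or BZ replicate 2, and 2 without sham replicate 2. RIN was 7.8 to 8.4 in Old Late shams, 7.1 to 7.6 in IZ and 6.8 to 7.8 in BZ. With RIN as a covariate 2 genes were called in IZ and 0 in BZ. Over the alternative processing settings the member median ran from −0.07 to 0.25 in IZ and from 0.13 to 0.45 in BZ.

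**Figure D3:**
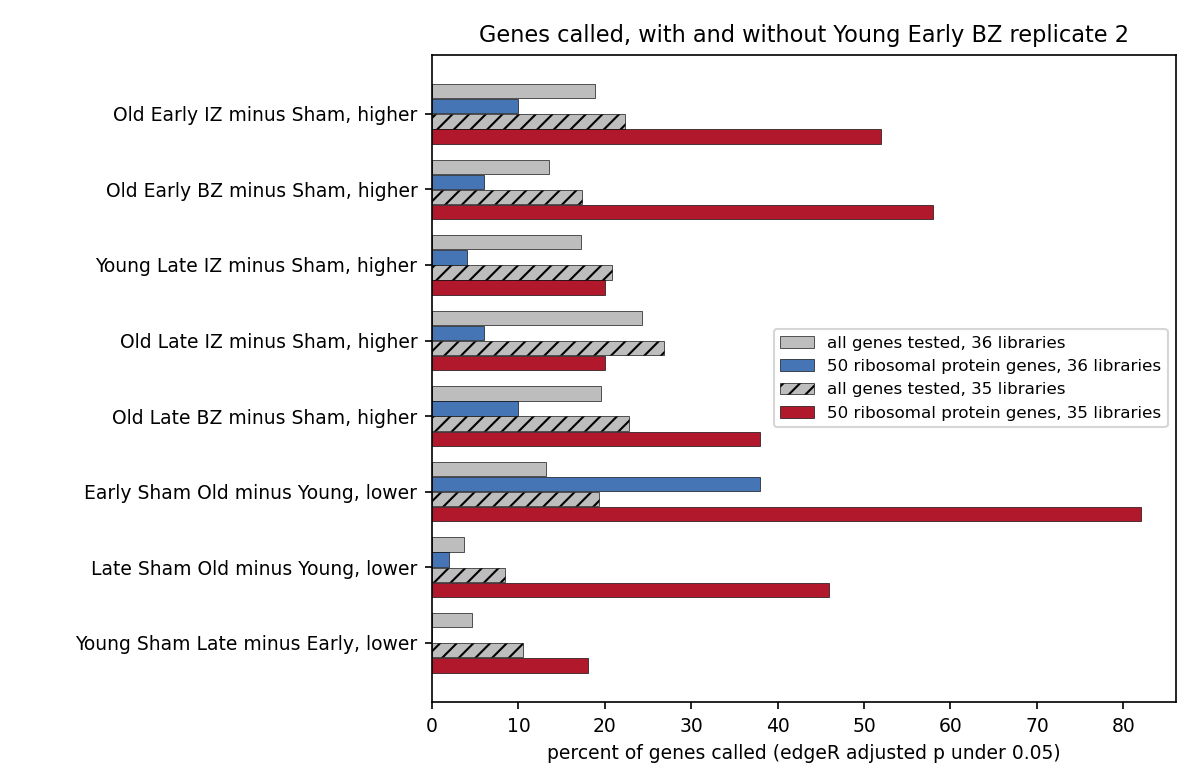
Percent of genes called by edgeR in the direction named for each of 8 comparisons, in all genes tested (grey) and in the 50 ribosomal protein genes, with all 36 libraries (blue) and with the 35 that leave out Young Early BZ replicate 2 (hatched grey and red). Bars start at 0. With 36 libraries the members' bar exceeds that of all genes in Early shams alone among these 8, and with 35 also in both Old Early zones, Old Late BZ, Late shams and between Young shams.

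In the infarct zones of Old pigs RPL3 rose and its muscle paralog RPL3L fell. RPL3, which reaches close to the peptidyl transferase centre of the large subunit, is on chromosome 5 from 8922653 to 8934282. In Old pigs it measured 248, 329 and 278 CPM in Early shams, 1015, 649 and 737 CPM in IZ and 772, 637 and 676 CPM in BZ. Both zones lay above the shams, by 1.49 ± 0.30 (adjusted p = 0.000469) and 1.28 ± 0.30 (adjusted p = 0.00336). At 1 week it measured 236, 327 and 256 CPM in Old shams, 690, 459 and 534 CPM in IZ and 624, 527 and 470.0 CPM in BZ. Again neither zone overlapped the shams (1.04 ± 0.30, adjusted p = 0.00554, and 0.99 ± 0.30, adjusted p = 0.0113). The Young shams held more RPL3, with 756, 653 and 538 CPM Early and 631, 526 and 489 CPM Late, above every Old sham. The age differences were −1.19 ± 0.30 (adjusted p = 0.00691) and −1.01 ± 0.30 (adjusted p = 0.0318). In Young IZ it measured 884, 972 and 848 CPM at 1 day and 930, 800 and 737 CPM at 1 week, above the shams in each case (0.47 and 0.58, not called over 36 libraries, and adjusted p = 0.0456 and 0.0139 over 35).

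RPL3L measured 190, 188 and 219 CPM in Young Early shams and 43.0, 96.8 and 29.4 CPM in IZ, and fell by 1.82 ± 0.52 on the log2 scale (adjusted p = 0.0112). In Old Early pigs it measured 173, 133 and 114 CPM in shams and 31.6, 84.8 and 29.5 CPM in IZ (−1.53 ± 0.52, adjusted p = 0.0235). In Old Late pigs it measured 160, 85.2 and 121 CPM in shams and 25.3, 24.6 and 26.4 CPM in IZ, its largest drop (−2.26 ± 0.53, adjusted p = 0.000869). In each of these all IZ libraries lay below all shams. In Young Late pigs shams at 120, 74.4 and 130 CPM overlapped IZ at 60.6, 87.1 and 72.0 CPM (−0.56, not called). The Young Early call was lost without IZ replicate 1 or 3, and the Old Early call without sham replicate 1 or IZ replicate 1 or 3. No other member was called lower in an infarct zone over 36 libraries.

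The ratio of RPL3 to RPL3L counts does not depend on library scaling. It was lowest in Old shams, at 2.11 ± 0.59 (SD, n = 3) Early and 2.48 ± 1.22 Late, and stood at 3.30 ± 0.77 and 5.36 ± 1.65 in Young shams. In IZ it was 19.8 ± 9.42 and 21.6 ± 12.6 in Young and Old pigs at 1 day, and 11.6 ± 3.31 and 22.1 ± 4.56 at 1 week. The lowest IZ ratio exceeded the highest sham ratio in each of the 4 sets, with 10.04 against 3.97, 7.65 against 2.47, 9.17 against 7.08 and 18.7 against 3.84. Mean BZ ratios lay between those of sham and IZ, at 7.05 ± 3.55, 11.0 ± 8.46, 7.61 ± 1.59 and 8.63 ± 4.18 in the same order. RPL3 and RPL3L are near copies, and how the counting treated reads that fit both is not given in the sources used here, so the split between them is uncertain.

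Cardiomyocyte markers fell in the infarct zones. Of 11 tested markers, 9, 9, 6 and 10 fell in IZ of Early Young, Early Old, Late Young and Late Old pigs, with medians of −1.63, −1.49, −0.69 and −1.90. Their summed level went from 117666 to 138776 CPM in Young Early shams to 33620 to 56046 CPM in IZ, from 86442 to 97777 to 31519 to 52157 CPM in Old Early pigs, from 92947 to 132293 to 67294 to 90974 CPM in Young Late pigs and from 95603 to 107990 to 25665 to 39326 CPM in Old Late pigs. None of the 11 cardiomyocyte markers was at 0 in any library. In the same order 8, 11, 12 and 14 of 14 leukocyte markers and 5, 9, 9 and 10 of 11 fibroblast markers rose. In Old Early pigs summed leukocyte markers were 668 to 816 CPM in shams and 1059 to 2444 CPM in IZ, and fibroblast markers 1421 to 2149 CPM and 4512 to 4862 CPM. In Young Early pigs the summed leukocyte markers overlapped, at 845 to 1147 CPM in shams and 825 to 1152 CPM in IZ. CD3E, CSF3R and LYZ were each at 0 in 1 library and the B cell marker MS4A1 in 21. The part of these cell types in the ribosomal protein differences was not tested.

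**Figure D4:**
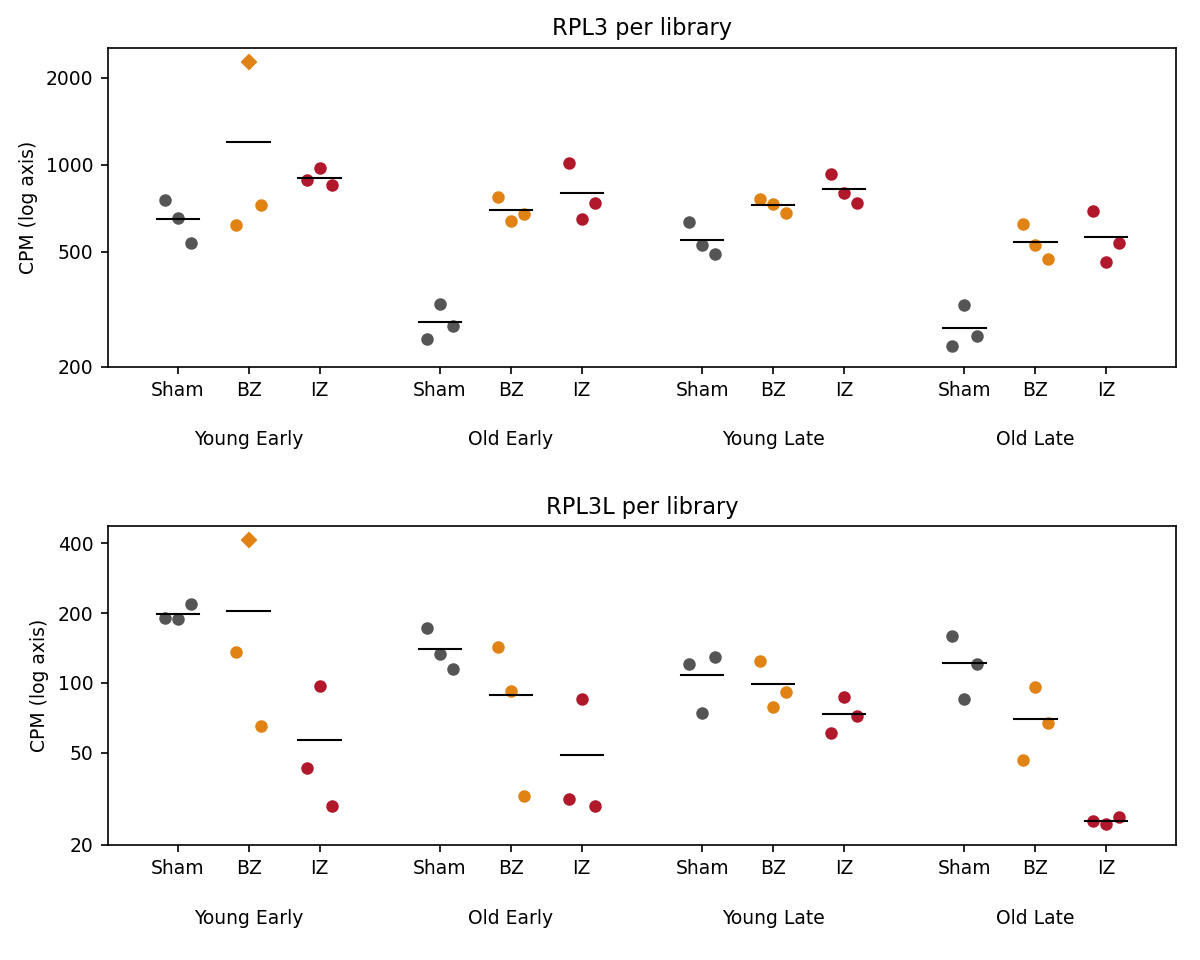
CPM (log axis) of RPL3 and of RPL3L in each library by group. Each point is a library, the bars are group means and the diamond is Young Early BZ replicate 2. RPL3 is higher in the Old infarct zones than in the Old shams, and RPL3L lower, at 24.6 to 26.4 CPM in Old Late IZ.

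The paralogs differed in direction. RPL7L1 rose in Old Early, Young Late and Old Late IZ and in Old Late BZ, and RPL3L fell. RPL36AL, a near copy of the large subunit gene RPL36A, measured 73.7, 78.9 and 75.4 CPM in Old Early shams and 131, 108 and 106 CPM in IZ without overlap, but was not called (0.60, adjusted p = 0.20). RPS27L, a paralog of RPS27 known as a p53 target, measured 37.7, 41.4 and 41.1 CPM in Old Early shams and 48.7, 44.0 and 37.5 CPM in IZ, which overlap (0.12, not called). Across the 12 group means RPL3L had the widest span (2.96 on the log2 scale), followed by RPL3 and RPLP2 (1.89 each), and RPL7 (0.64), RPL5 (0.79) and RPL26L1 (0.80) the narrowest. Without Young Early BZ replicate 2 the narrowest were RPL5 (0.52), RPL6 (0.54) and RPL7 (0.54), with RPL3L still widest (2.96). Across the 36 libraries from 24 pigs, the median Pearson r of a gene's log2 CPM with the other members was lowest for RPL3L (0.41), RPL7 (0.68), RPL7L1 (0.70), RPL26L1 (0.73) and RPSA (0.78). Without Young Early BZ replicate 2 it was 0.20 for RPL3L and 0.36 for RPL7. These values describe libraries that share pigs, depth and scaling.

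Few members were called between the 2 zones of a heart. In the fit with the animal as a block, RPL3L was called lower in IZ than in BZ in Young Early pigs (−1.63 ± 0.37, adjusted p = 0.0188). Pig by pig it measured 135, 412 and 65.1 CPM in BZ and 43.0, 96.8 and 29.4 CPM in IZ. It was lower in IZ in each pig, though the 2 groups overlapped. It was the only call there, against 6.43% of all genes lower and 3.78% higher, and the member median was −0.46. The median was −0.03 without Young Early BZ replicate 2. At an unadjusted p under 0.05, 16 members were lower, against 15% of all genes. The count was 0 without the block, without Young Early BZ replicate 1 or 2 or IZ replicate 1 or 2, and 3 without BZ replicate 3 or IZ replicate 3. No member was called by edgeR in Old Early (median −0.06) or Young Late pigs (0.10), where 0% of all genes were called. None was below an unadjusted p of 0.05 there either, against 3.18% of all genes higher and 2.73% lower in Old Early pigs and 7% and 2.7% in Young Late pigs, and DESeq2 called none (0.0348% and 0.595% of all genes in either direction). None was called in Old Late pigs (median −0.25), where 1.27% of all genes were called in either direction by edgeR, and 1 member was lower at an unadjusted p under 0.05 (12.1% of all genes). Without Young Early BZ replicate 2, 1 member was called lower there, against 1043 of all 14586 genes tested. DESeq2 called 8 members lower in Young Early and 1 in Old Late pigs, against 18.5% and 7.49% of all genes in either direction.

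The response to infarction was compared between ages by the difference of the 2 differences from sham. No member was called over 36 libraries by edgeR. The shares of all genes called in either direction were 0.0344% and 0.199% at 1 day in IZ and BZ, and 3.53% and 0.977% at 1 week, and the member medians were 0.57, −0.12, −0.04 and 0.27. At an unadjusted p under 0.05, 6 members were higher in Early IZ, the share of all genes being 12.1%, and 1 was lower in Late IZ (11.6% of all genes). None passed that threshold in Early BZ (8.33% of all genes higher, 9.37% lower) or Late BZ (8.96% higher, 8.64% lower). DESeq2 called none in any of the 4, where 6.87%, 4.7%, 7.13% and 4.22% of all genes were called in either direction. Without Young Early BZ replicate 2, 11 members had a higher response in Old than in Young pigs in Early IZ (7.27% of all genes higher) and 23 in Early BZ (7.9%; median 0.81). In Early IZ these included RPL28 (1.67 ± 0.39, adjusted p = 0.0159), RPLP2 (1.28 ± 0.38, adjusted p = 0.0295) and RPL3 (1.01 ± 0.26, adjusted p = 0.0201). In Early BZ the same 3 genes had values of 1.78 ± 0.42, 1.57 ± 0.41 and 1.24 ± 0.28. This difference contains the sham libraries of both ages. For RPLP2, the member with the widest Early sham difference, shams measured 1282, 1125 and 1028 CPM in Young and 396, 430 and 311 CPM in Old pigs. Its Early IZ values were 594, 1153 and 513 against 785, 534 and 496 CPM, which overlap. The part of the shams in the response difference was not tested. With RIN as a further covariate 0 members were called in Early IZ and 9 in Early BZ.

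Some of these differences depended on how libraries were scaled. In Old Early pigs the difference in ribosomal protein level from sham was 0.46 by TMM, 0.87 per total counts, 0.62 per non-mitochondrial counts and 0.48 by DESeq2 size factors in IZ, and 0.49, 0.86, 0.57 and 0.49 in BZ. In Young Early IZ it changed sign, at −0.15 by TMM and −0.19 by DESeq2 size factors but 0.42 per total and 0.32 per non-mitochondrial counts. In Old Late IZ it ranged from 0.16 by TMM to 0.73 per total counts. Between the zones of Young Early hearts (IZ minus BZ) it was −0.49 by TMM, −0.07 per total counts and 0.05 per non-mitochondrial counts. The Early sham difference between ages was negative under all 4, at −0.74, −0.44, −0.40 and −0.79, with libraries overlapping per total counts, and the Late sham difference was −0.50, −0.16, −0.47 and −0.54. As a share of all counts, the 51 genes held 2.28 to 3.17% in Young Early shams, 1.72 to 2.36% in Old Early shams, 3.16 to 4.53% in Old Early IZ, and 3.11 to 3.85% in Old Late IZ against 2.12 to 2.14% in Old Late shams. TMM factors were 1.41 to 1.66 in Old Late IZ, the group with the lowest mitochondrial shares.

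**Figure D5:**
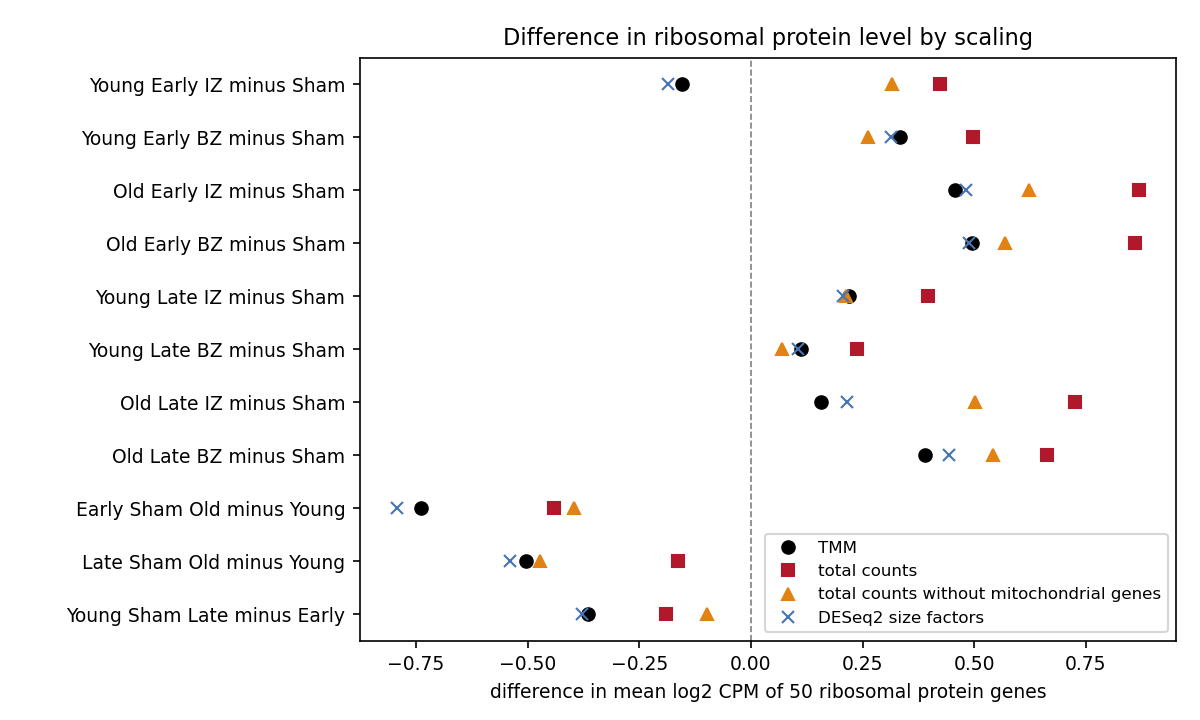
Difference in mean log2 CPM of the 50 ribosomal protein genes between groups, for each of 11 comparisons, under TMM, total counts, non-mitochondrial counts and DESeq2 size factors. Each marker is a difference of group means. Young Early IZ against sham lies at −0.15 by TMM and at 0.42 per total counts.

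At 1 day more of the genes that build ribosomes were called higher than lower in the infarct zone. Over all genes 14.8, 18.9, 17.3 and 24.3% were called higher and 11.6, 14, 13.1 and 23.2% lower in IZ of Early Young, Early Old, Late Young and Late Old pigs. Of 46 tested ribosome biogenesis factors, 13 rose and 1 fell in Young Early IZ (median 0.43), 20 rose and none fell in Old Early IZ (0.48), 3 rose and 1 fell in Young Late IZ (0.00), and none rose and 9 fell in Old Late IZ (−0.28). The shares that rose at 1 day, 28.3% and 43.5%, were above those of all genes, and the 19.6% that fell in Old Late IZ was below. Over the 35 libraries 20, 27, 6 and 1 were called higher and 1, 1, 4 and 12 lower. Of all 14741 genes tested there, 2886, 3298, 3078 and 3958 were called higher and 2323, 2765, 2512 and 4065 lower. The nucleolar helicase DDX21 rose by 2.39 ± 0.65 (adjusted p = 0.00863) and the nucleolar factor LYAR by 1.60 ± 0.28 (adjusted p = 0.000248) in Young Early IZ. MRTO4, which holds the place of RPLP0 in large subunit precursors, rose by 1.83 ± 0.38 (adjusted p = 0.000523) and BOP1, a large subunit assembly factor, by 1.49 ± 0.29 (adjusted p = 0.000302) in Old Early IZ. SBDS, which acts in the last step of large subunit maturation, fell by 0.88 ± 0.15 on the log2 scale in Old Late IZ (adjusted p = 2.26e-05). MYC, a transcription factor that drives ribosome production, rose at 1 day in IZ of both ages, by 1.91 ± 0.36 (adjusted p = 0.000402) in Young and 1.63 ± 0.35 (adjusted p = 0.000827) in Old pigs. Of 15 RNA polymerase I genes, which make ribosomal RNA, 0, 1, 0 and 0 rose and 1, 0, 3 and 6 fell, in the same order, the last being 40% of the list.

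Translation factors were mixed. Of 28 initiation factors 9, 5, 3 and 2 rose and 0, 4, 4 and 11 fell in the same order. The share that rose was 32.1% in Early Young IZ and the share that fell 39.3% in Late Old IZ, and in Early Old IZ the shares of 17.9% and 14.3% were near those of all genes. The helicase EIF4A1 rose in Old Early IZ by 1.98 ± 0.31 (adjusted p = 2.15e-05). Of 9 elongation factors 2, 0, 0 and 1 rose and 0, 2, 1 and 3 fell. EEF1A2, the muscle and neuron form of the factor that delivers aminoacyl-tRNA, fell by 1.64 ± 0.31 on the log2 scale in Old Late IZ (adjusted p = 8.82e-05). Of 21 genes around LARP1 and mTORC1, 3, 2, 1 and 3 rose and 3, 4, 7 and 12 fell, 57.1% of the list in Late Old IZ. LARP1 itself rose by 1.37 ± 0.44 in Young Early IZ (adjusted p = 0.0234) and fell by 1.67 ± 0.45 on the log2 scale in Young Late IZ (adjusted p = 0.00566), and EIF4EBP1, an mTORC1 target that holds back initiation, rose by 2.32 ± 0.42 in Old Early IZ (adjusted p = 0.000124). Of 10 other mRNAs with an oligopyrimidine tract 2, 2, 2 and 3 rose and 0, 2, 2 and 3 fell, and in Early shams 1 was higher and 1 lower in Old pigs, with a median of 0.00. FAU, the ubiquitin-like fusion that carries a small subunit protein, rose in Old Early IZ (0.71 ± 0.15, adjusted p = 0.000618) and Old Late IZ (0.56 ± 0.15, adjusted p = 0.00282). It was called in neither Young IZ, and RACK1, tested in the same list, was called in no IZ against sham. FAU ran from 28.9 to 59.3 CPM over the libraries and RACK1 from 551 to 4011 CPM.

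The genes outside the list whose log2 CPM followed the ribosomal protein level most closely were found over the 36 libraries among 7388 candidates. They were TSR3 (Pearson r of 0.974), which modifies small subunit ribosomal RNA, the mitochondrial ribosomal protein gene MRPL52 (0.970), SYVN1 (0.966), a ubiquitin ligase of the endoplasmic reticulum, EEF1D (0.964), an elongation factor subunit, and the spliceosome gene SNRPD2 (0.964). Without Young Early BZ replicate 2 the values were 0.948, 0.934, 0.968, 0.921 and 0.93. They are given as a description, since the libraries share pigs, depth and scaling.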

How the data were processed

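The authors deposited 1 table of raw counts per gene for the 36 libraries of polyA RNA. The submitters' processing notes name featureCounts (Subread 1.5.1), STAR, Trimmomatic 0.36 and bcl2fastq 2.19.0.316, and per the file headers the table gives each gene's coordinates, strand and model length. The genome build and the strand setting are not given in the sources used here. The genes and lists were chosen with earlier results of these data known.

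Counts were scaled by TMM and tested with edgeR 4.0.16 (R 4.3.3) by quasi-likelihood: 12 groups over 36 libraries (24 residual degrees of freedom, 14537 genes after a filter on a minimum count of 10 and a total of 15). IZ against BZ was fitted over 24 libraries with the animal as a block (8 degrees of freedom, 14386 genes). That pairing comes from the labels' animals. p-values were adjusted by Benjamini-Hochberg across every gene in a fit, with calls at an adjusted p under 0.05. Log2 CPM used a prior count of 2. The models were tested on simulated data. Alternatives used DESeq2 1.42.0 and limma 3.58.1. In 1 Old Late BZ library the labels name 2 different pigs, and the title was used. Named were a panel of paralogs, stalk and other members, up to 2 called members per direction and comparison, those extreme in level or range, up to 2 called genes per pathway list and IZ comparison, and the 5 genes most like the ribosomal protein level.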

Additional observations from a re-analysis of the deposited data

How the results depend on the processing

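Numbers in this part are called ribosomal protein genes unless a level is named, in edgeR unless another tool is named, and the cause of a change was not tested. Shares of all genes called are not given in this part. Direction was followed for the called members named by the rule above, and none changed sign in the settings run. Other called members, RPS18 among them, and genes outside the list were not followed. Leaving Young Early BZ replicate 2 out of every fit, chosen after seeing the data, gave 4 in Young Early IZ, 27 in Old Early IZ, 29 in Old Early BZ, 10 in Young Late IZ, 1 in Young Late BZ, 12 in Old Late IZ, 19 in Old Late BZ, 11 and 23 for the Early IZ and BZ response between ages, 41 in Early shams, 23 in Late shams, 9 between Young shams, and 0 and 1 for IZ against BZ in Young Early and Old Late pigs. Adding preparation batch to that setting gave 4, 27, 27, 10, 1, 12, 19, 11 and 23 in the same order, 32 in Early shams and 7 between Young shams. Adding RIN instead, also chosen after seeing the data, gave 7 in Young Early IZ, 12 in Old Early IZ, 35 in Old Early BZ, 10 in Young Late IZ, 1 in Young Late BZ, 9 in Old Late IZ, 9 for the Early BZ response, 1 for the Late IZ response and 3 between Young shams.

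With 36 libraries, RIN as a covariate gave 1 in Young Early IZ, 1 in Young Late IZ, 2 in Old Late IZ, 0 in Old Late BZ, 2 in Early shams and 0 in Late shams, and preparation batch gave 1 in Early shams. It could not be fitted for Late shams, where batch and age cannot be told apart. No count filter gave 1 in Young Early IZ, 1 in Young Late IZ and 12 in Early shams. DESeq2 size factors gave 1 in Young Early IZ and 1 in Young Late IZ, and leaving out mitochondrial genes 1 in Young Late IZ. The DESeq2 test gave 1 in Young Early BZ, 1 in Young Late BZ, 2 in Late shams, and 8 and 1 for IZ against BZ in Young Early and Old Late pigs. The replicate block on the animal is in the IZ against BZ fit, and without it Young Early IZ against BZ had 0. With a random replicate block for the pig over all libraries (limma, consensus correlation 0.378) Early shams had 23, and no count moved by over 1.5 times.

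Leaving out 1 library at a time gave 0 to 1 in Young Early IZ, 0 to 20 in Young Early BZ, 3 to 7 in Old Early IZ, 1 to 3 in Old Early BZ, 0 to 3 in Young Late IZ, 0 to 1 in Young Late BZ, 2 to 6 in Old Late IZ, 0 to 5 in Old Late BZ, 0 to 23 for the Early BZ response, 3 to 7 in Early shams, 0 to 1 in Late shams and 0 to 3 for Young Early IZ against BZ. RPL3 in both Old Early zones and Old Late IZ, RPSA and RPL7L1 in Old Early IZ, and RPL3L in Old Late IZ were called in every setting run for them.

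Differences in ribosomal protein level per total counts were 0.42 in Young Early IZ (−0.15 by TMM), 0.87 in Old Early IZ, 0.86 in Old Early BZ, 0.40 in Young Late IZ, 0.24 in Young Late BZ, 0.73 in Old Late IZ, 0.66 in Old Late BZ, −0.44 in Early shams, −0.16 in Late shams, −0.19 between Young shams and 0.063 for IZ against BZ in Old Late pigs. Per non-mitochondrial counts they were 0.32 in Young Early IZ, 0.50 in Old Late IZ, 0.54 in Old Late BZ, −0.40 in Early shams and −0.10 between Young shams. IZ against BZ in Young Early pigs was −0.49 by TMM, −0.07 per total counts and 0.05 per non-mitochondrial counts, in Old Early pigs −0.04, 0.0094 and 0.05, and in Old Late pigs −0.23 by TMM and −0.04 per non-mitochondrial counts, and Young Late BZ went from 0.11 to 0.07. Depth limits RPL10L, which was too sparse to test.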
